A study of Mus musculus with 55 samples.

Results

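The insulin-like growth factor (IGF) and vascular endothelial growth factor (VEGF) genes were followed in the ventral dentate gyrus of mice that differed in housing and in their response to chronic social defeat stress (CSDS). They were 9 genes chosen by name, 7 of the IGF system and 2 of the VEGF system, out of 45318 gene identifiers in the count tables. All 9 were among the 18283 genes with enough counts to be tested. The IGF genes were the ligands Igf1 and Igf2, the receptors Igf1r and Igf2r, and the binding proteins Igfbp2, Igfbp4 and Igfbp5; the VEGF genes were the ligand Vegfa and its receptor Kdr.

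RNA-seq was performed on punches of the ventral dentate gyrus from 54 mice, with 1 set of counts per mouse except for EE control mouse 9. That mouse had 2 sets, one labelled as a repeat, which were summed. The labels do not say whether the repeat was a second sequencing run or a second library. All mice were male C57BL/6J, with no transgene or mutant allele in any of these groups. From weaning, and for some weeks before CSDS as young adults, mice were raised in standard housing (SH) or in an enriched environment (EE), a larger group cage with running wheels, tunnels and objects. Controls were not defeated, and defeated mice were called resilient (RES) or susceptible (SUS) from a social interaction test with an unfamiliar CD1 aggressor. There were 10 SH control, 7 SH RES, 10 SH SUS, 9 EE control, 9 EE RES and 9 EE SUS mice. RES and SUS are outcomes and not assigned treatments, and exercise, space and company in the EE cages cannot be told apart. Mice of both housings were raised in shared cages, which the labels do not name. Between 16760009 and 45872357 reads were counted in genes per mouse, with a median of 21552884. Markers of dentate granule cells were present in every library at a summed level of 456 to 994 CPM (counts scaled to library size). Markers of choroid plexus epithelium stood high in a few libraries. Their median was 23.7 CPM in controls and their highest value was 985 CPM in SH control mouse 3. Summed thalamic markers ranged from 124 to 715 CPM over all mice. Their means (with SD) were 241 ± 91.4 CPM in SH control, 229 ± 67.8 in SH RES and 256 ± 97.7 in SH SUS mice. In EE they were 197 ± 52.3 CPM in control, 283 ± 175 in RES and 384 ± 184 in SUS mice. The thalamic sum was not tested between groups.

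IGF1 and IGF2 are secreted peptides related to insulin that signal mainly through the tyrosine kinase receptor IGF1R. IGF2R, also the cation-independent mannose 6-phosphate receptor, takes up IGF2 and carries it to lysosomes, and the IGF binding proteins hold the ligands in the extracellular space and set how much of them reaches a receptor. VEGFA is the main growth factor of blood vessel endothelium and acts through the receptor tyrosine kinase KDR, also called VEGFR2. Both families have been studied in the hippocampus in connection with exercise, enriched housing and adult neurogenesis. In the brain, Igf2 is expressed largely in choroid plexus, leptomeninges and vessel-associated cells, and Kdr is expressed mainly in endothelium.

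In the GRCm38 genome with the GENCODE M21 annotation, Igf1 lies on chr10:87858265-87937042, Igf2 on chr7:142650766-142666816, Igf1r on chr7:67952827-68233668, Igf2r on chr17:12682406-12769664, Vegfa on chr17:46016993-46032369 and Kdr on chr5:75932827-75978458. Igfbp4 lies on chr11:99041244-99054392. Igfbp2 (chr1:72824503-72852474, plus strand) and Igfbp5 (chr1:72857932-72874884, minus strand) are neighbours whose 3′ ends face each other with 5457 bases between them. Read counts were taken over the exons of each gene, so no transcript start was told apart from another. The strand opposite to each gene held between 0.0543% of its stranded counts for Igfbp2 and 1.12% for Vegfa, so antisense reads were few.

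Promoter sequences from RefSeq, build GRCm38.p6, were found for all 9 genes, in 14 windows because some genes have several starts. The 250 bases before a start are shown for Igf2 and Igfbp2, whose levels moved together across mice, and for Vegfa, the member with the smallest unadjusted p in the comparison of defeated with control mice. The Igf2 window is on chr7:142657497-142657746 (minus strand), the Igfbp2 window on chr1:72824230-72824479 (plus strand) and the Vegfa window on chr17:46032378-46032627 (minus strand). Igf2 has 4 windows, and the one shown is nearest to the 3′ end of the gene; Igfbp2 and Vegfa have 2 each and the more upstream is shown. Capitals mark the letters GGGCGG, the core of a GC box, and CACGTG, an E-box, on either strand.
Igf2: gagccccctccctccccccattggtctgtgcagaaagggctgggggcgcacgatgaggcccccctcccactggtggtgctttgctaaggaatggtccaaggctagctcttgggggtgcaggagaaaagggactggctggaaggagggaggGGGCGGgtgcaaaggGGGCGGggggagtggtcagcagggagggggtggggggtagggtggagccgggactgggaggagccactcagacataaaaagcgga
Igfbp2: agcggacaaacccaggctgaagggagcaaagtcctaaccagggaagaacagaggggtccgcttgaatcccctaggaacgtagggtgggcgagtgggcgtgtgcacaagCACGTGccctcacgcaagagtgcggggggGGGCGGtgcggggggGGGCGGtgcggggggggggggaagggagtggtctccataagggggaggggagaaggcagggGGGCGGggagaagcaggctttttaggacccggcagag
Vegfa: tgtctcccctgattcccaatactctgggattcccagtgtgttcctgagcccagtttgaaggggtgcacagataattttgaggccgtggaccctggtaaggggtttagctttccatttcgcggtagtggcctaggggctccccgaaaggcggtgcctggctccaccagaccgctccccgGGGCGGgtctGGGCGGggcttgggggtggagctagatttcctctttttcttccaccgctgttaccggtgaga
The shown Igf2 window held GGGCGG 2 times and had a GC content of 66.0%, the Igfbp2 window held it 3 times with a GC content of 67.2%, and the Vegfa window held it 2 times with a GC content of 59.2%. GGGCGG was found on either strand in 32.7% of all 32851 promoter windows of this length, and CACGTG in 6.02%. CACGTG occurred 1 time in the Igfbp2 window and in neither of the other two windows. The shorter ACGTG, which the CACGTG match contains and which is the core of the hypoxia response element, was present in 16.6% of all windows and was not found in the Vegfa window shown. The other Vegfa window, on chr17:46025164-46025413, held it 1 time. These are matches of letters and not measured binding sites, and TATAAA, found in 12.4% of all windows, occurred in none of the 3 windows shown.

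Levels of different genes were compared as CPM per kilobase of exon. On that scale Igfbp5 had the highest mean level of the 9 genes, 21.2 ± 3.71 (SD, n = 54), followed by Igf2r at 13.8 ± 0.679, Igfbp2 at 10.1 ± 1.81 and Vegfa at 9.41 ± 1.56. Igfbp4 (4.18 ± 0.672), Kdr (2.60 ± 0.345), Igf2 (2.42 ± 0.612) and Igf1r (1.86 ± 0.160) came next, and Igf1 was lowest at 0.786 ± 0.108. The order of neighbours was kept within single mice for most steps, since Igfbp5 was above Igf2r in 53 of 54 mice, Vegfa above Igfbp4, Igfbp4 above Kdr, and Igf1r above Igf1 in 54 of 54. Igfbp2 was above Vegfa in only 32 mice and Kdr above Igf2 in only 30, so those neighbours did not differ beyond their spread.

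The genes also differed in how much they varied between mice, measured on CPM scaled by the trimmed mean of M values (TMM). Igf2 varied most, with a coefficient of variation of 25.3% and a 2.92-fold span from lowest to highest mouse, and Igf2r varied least, with 4.93% and a 1.27-fold span. Igf2 had a higher coefficient of variation than 80.1% of all tested genes and Igf2r than 6.28%. The 2 sets of counts of EE control mouse 9 gave a gauge of technical error, which may include library preparation as well as counting. The ratio of plain CPM between them lay between 0.884 for Igf1, with 170 and 160 counts, and 1.04 for Igf1r, with 627 and 697 counts.

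**Figure D1:**
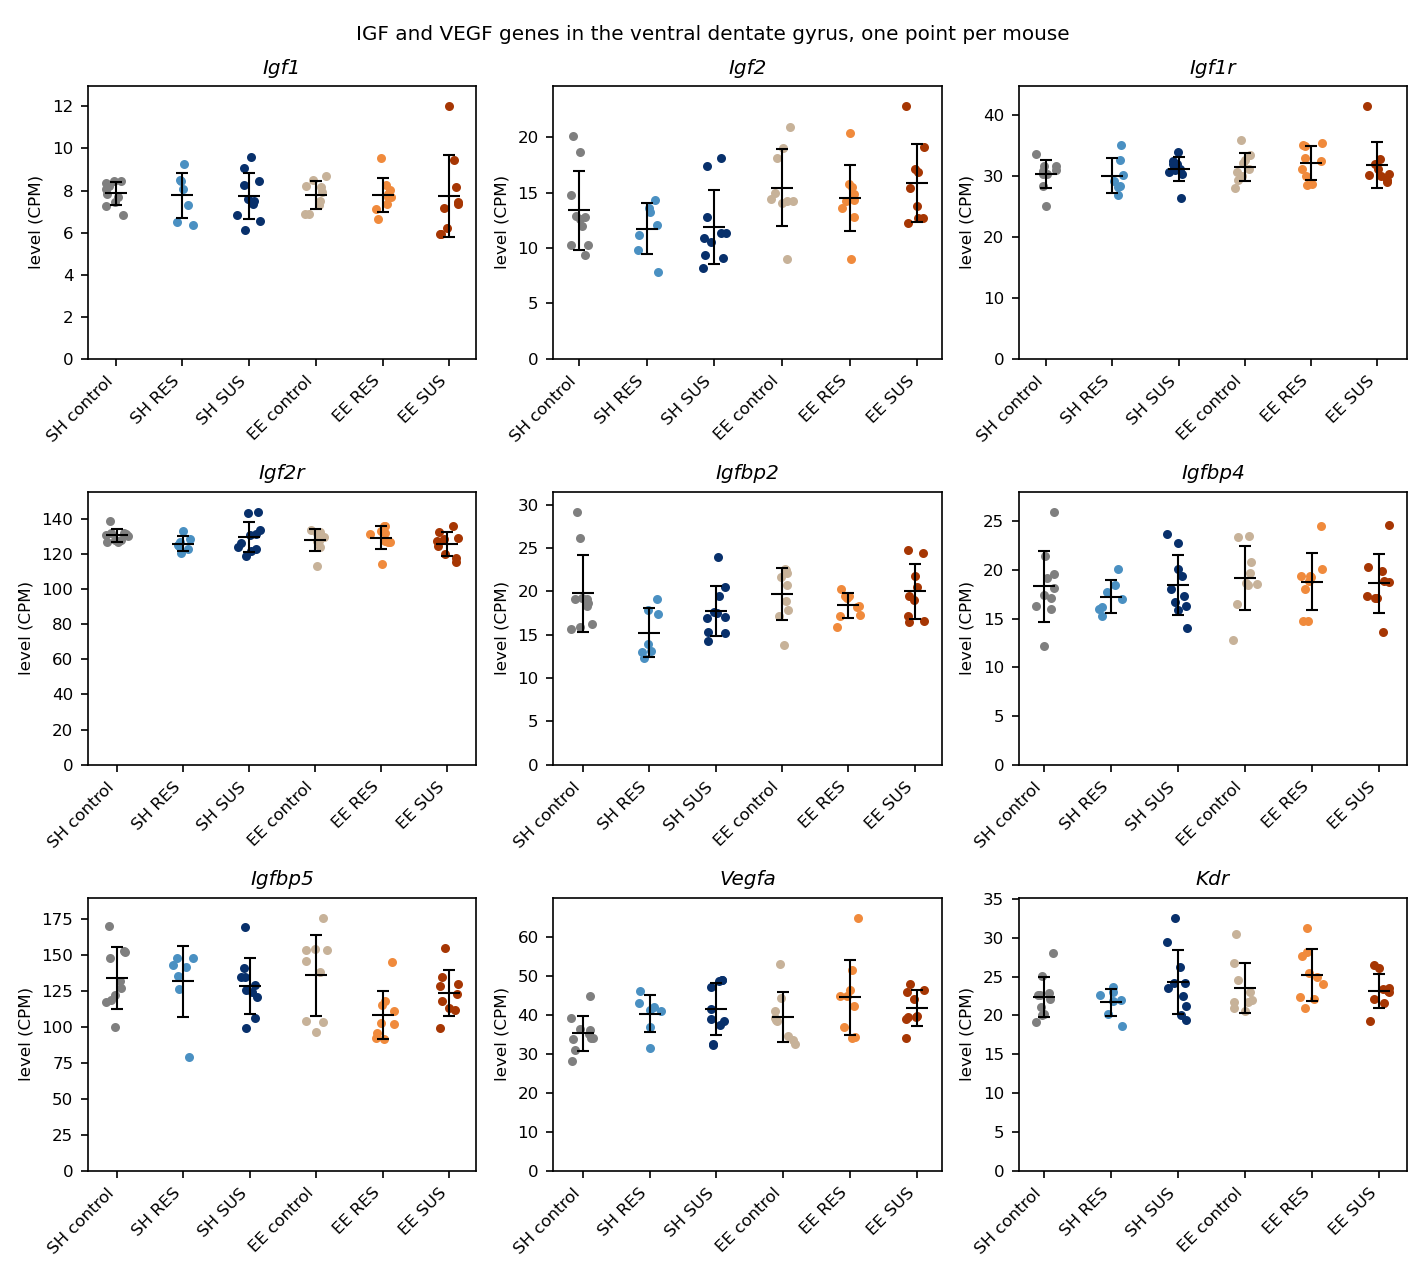
Levels of the 9 genes in CPM on axes that start at 0, one point per mouse and one column per group, with the group mean and SD in black. The Igf2 means of the 3 EE groups (14.5 to 15.9 CPM) lie above those of the 3 SH groups (11.7 to 13.4 CPM) with wide overlap of mice, while Igf1 means stay between 7.73 and 7.86 CPM.

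The question put to each gene was whether its level differed with housing, with defeat, or between SUS and RES mice. A gene was called at an adjusted p below 0.05 in the quasi-likelihood test of edgeR, adjusted by Benjamini-Hochberg over all 18283 genes. Igf2 was higher in EE than in SH mice, by 0.31 ± 0.09 on the log2 scale (SE; a 1.24-fold difference, adjusted p = 0.0436, 27 mice in each housing). It was the one member called, so that 1 of 9 members was called in EE against SH mice, where 2.42% of all genes were called. At an unadjusted p below 0.05 the count was 2 of 9, Igf2 and Igfbp2, against 17.6% of all genes. In a test for any difference among the 6 groups, 0 of 9 members were called, against 0.35% of all genes; the smallest adjusted p there was 0.284, for Igfbp2, and 4 members, Igf2, Igfbp2, Igfbp5 and Vegfa, had an unadjusted p below 0.05, against 11.1% of all genes.

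In the other 13 comparisons edgeR called 0 of 9 members, and limma-voom and DESeq2 also called 0 in each. For SUS against control mice in SH, the share of all genes called was 0.0328%, and 1 member against 2.78% of all genes had an unadjusted p below 0.05. For RES against control mice in SH, 0% of all genes were called, and 1 member against 3.51% of genes passed the unadjusted threshold. In EE mice these values were 0%, 0 members and 7.9% for SUS against control, and 0%, 1 member and 7.91% for RES against control. For EE against SH controls, 0.00547% of genes were called, and 0 members against 5.02% of genes passed without adjustment. For EE against SH among RES mice, 0.273% of genes were called, and 3 members against 16% of genes passed without adjustment. Among SUS mice the same housing comparison gave 0.00547%, 1 member and 7.36%.

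For SUS against RES mice, 0% of genes were called in either housing, and 0 members passed the unadjusted threshold in SH, against 4.88% of genes, or in EE, against 3.52%; DESeq2 gave 1 such member in SH. With both housings pooled, SUS against RES gave 0% of genes called, and 1 member against 3.67% of genes without adjustment. Defeated against control mice gave 0.0438% of genes called, and 3 members by edgeR and DESeq2 or 2 by limma-voom against 4.81% of genes without adjustment. In the interaction of defeat with housing 0% of genes were called, and 0 members against 6.47% of genes passed without adjustment. In the interaction of SUS or RES status with housing, 0% of genes were called and 1 member passed without adjustment, against 4.84% of genes. The comparisons within a housing share their control mice and are not independent of one another.

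**Figure D2:**
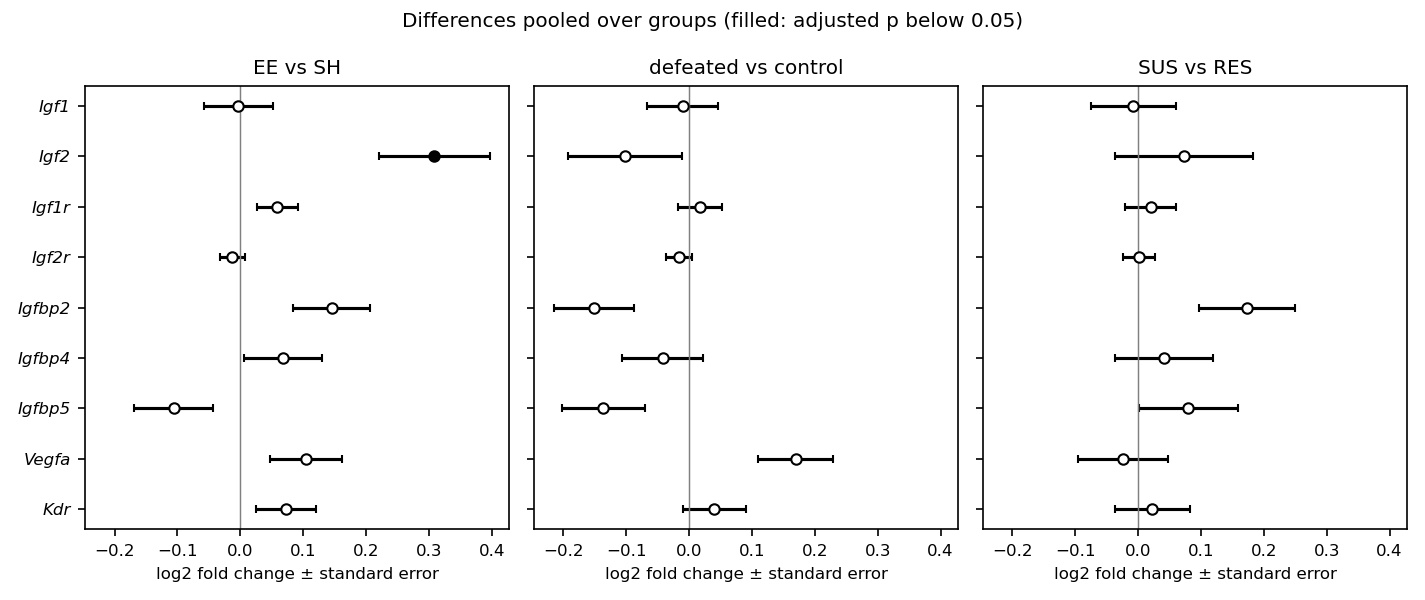
Log2 fold change of each gene with its standard error in 3 comparisons pooled over groups: EE against SH, defeated against control, and SUS against RES. The filled point is Igf2 in EE against SH (0.31 ± 0.09), and the largest difference in defeated against control mice is that of Vegfa (0.17 ± 0.06), which was not called.

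Among the ligands, Igf1 had nearly equal means in all 6 groups, from 7.73 to 7.86 CPM. Its lowest, median and highest levels were 6.83, 7.95 and 8.44 CPM in SH control mice, 6.36, 8.07 and 9.25 in SH RES and 6.10, 7.55 and 9.60 in SH SUS mice. They were 6.87, 7.91 and 8.67 CPM in EE control, 6.62, 7.69 and 9.55 in EE RES and 5.93, 7.38 and 12.01 in EE SUS mice. All groups overlapped, the controls lay in a narrower range than the defeated mice, and the 2 lowest and the highest of the 54 mice were all EE SUS mice. The log2 difference was 0.00 ± 0.05 for EE against SH (adjusted p = 0.991) and -0.01 ± 0.06 for defeated against control mice (adjusted p = 0.998).

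Igf2 levels in SH mice ran from a lowest of 9.40 through a median of 12.7 to a highest of 20.1 CPM in controls, 7.82, 12.1 and 14.3 in RES and 8.15, 11.1 and 18.1 in SUS mice. In EE mice they were 9.02, 14.4 and 20.9 CPM in controls, 8.96, 14.4 and 20.4 in RES and 12.2, 15.4 and 22.8 in SUS mice. The housings overlapped broadly, but 25 of 27 EE mice lay above the SH median of 11.98 CPM, and 3 EE mice lay above the highest SH mouse. Within each phenotype the EE mean was the higher one, with log2 differences of 0.21 ± 0.15 in controls (adjusted p = 0.979), 0.30 ± 0.16 in RES (adjusted p = 0.350) and 0.42 ± 0.15 in SUS mice (adjusted p = 0.503), none of them called. All 9 EE SUS mice lay above the SH SUS median. The housing difference was not shown to depend on defeat (interaction 0.15 ± 0.18, adjusted p = 0.901). For defeat itself the Igf2 difference was -0.10 ± 0.09 (adjusted p = 0.987).

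The Igf2 call stood close to the threshold. It was lost when any 1 of 30 of the 54 mice was left out, with an adjusted p of 0.0503 to 0.0696, while the log2 difference stayed between 0.28 and 0.34. Without the filter on low counts the adjusted p was 0.0635. Markers of vessel walls were also higher in mean: the summed level of 7 mural cell markers (Pdgfrb, Kcnj8, Abcc9, Vtn, Rgs5, Acta2 and Myh11, none at 0) ranged from 183 to 252 CPM with a mean of 210.4 ± 18.2 in SH mice and from 177 to 259.8 CPM with a mean of 225 ± 21.1 in EE mice. Of these, 3 of 7 were higher in EE at an unadjusted p below 0.05, a threshold that 17.6% of all genes passed in either direction. So were 5 of 10 endothelial markers, whose sum was 185 ± 14.2 CPM in SH (164 to 213) and 196 ± 20.4 in EE (158 to 239). The other markers of both lists did not pass as higher, and the sums themselves were not tested. With mural and endothelial marker scores as covariates the Igf2 difference was 0.19 (edgeR unadjusted p = 0.00839, adjusted p = 0.171). With dentate granule cell and CA3 pyramidal cell scores it was 0.22 (unadjusted p = 0.0176, adjusted p = 0.257). With choroid plexus and meningeal scores it was 0.25 (unadjusted p = 0.0001535, adjusted p = 0.0132). The unadjusted p without covariates was 0.000915. In punches of bulk tissue, fewer cells of a type and less RNA per cell cannot be told apart.

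Both receptors of the IGFs had group means that lay close together. Igf1r, the signalling receptor, had group means between 30.1 ± 2.89 (SH RES, n = 7) and 32.2 ± 2.74 CPM (EE RES, n = 9), and its EE minus SH difference was 0.06 ± 0.03 (adjusted p = 0.356). The lowest Igf1r level of the 54 mice was 25.2 CPM in an SH control and the highest 41.5 CPM in an EE SUS mouse, where the next mouse of its group was at 32.9 CPM. Igf2r, the clearance receptor, had group means between 125.5 ± 6.92 (EE SUS) and 130.4 ± 3.51 CPM (SH control), and all mice lay between 113 and 144 CPM. Its differences were -0.01 ± 0.02 for housing (adjusted p = 0.801) and -0.02 ± 0.02 for defeat (adjusted p = 0.987). Igf1r and Igf2r were not called in any of the 14 comparisons, at unadjusted p-values of 0.0796 or more.

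Of the binding proteins, Igfbp2 had its lowest mean in SH RES mice. Its lowest, median and highest levels were 15.7, 18.9 and 29.1 CPM in SH control, 12.3, 13.9 and 19.1 in SH RES and 14.3, 17.3 and 23.9 in SH SUS mice. In EE the values were 13.8, 20.7 and 22.6 CPM in control, 15.9, 18.3 and 20.3 in RES and 16.5, 19.5 and 24.8 in SUS mice. SH RES mice and SH controls overlapped, yet 4 of 7 SH RES mice lay below the lowest SH control and 1 of 7 lay above the SH control median. The log2 difference was -0.38 ± 0.11 (unadjusted p = 0.00144, adjusted p = 0.9999), which is not a call. The comparison of RES mice between housings (0.27 ± 0.11, adjusted p = 0.224) uses the same 7 SH RES mice. Pooled over groups, Igfbp2 differed by 0.15 ± 0.06 with housing (adjusted p = 0.189), by -0.15 ± 0.06 with defeat (adjusted p = 0.981) and by 0.17 ± 0.08 between SUS and RES mice (adjusted p = 0.999), none of them called.

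Markers of tissue around the dentate gyrus varied with Igfbp2. The mouse with the highest Igfbp2 level, SH control mouse 3 at 29.1 CPM, was the mouse with 985 CPM of summed choroid plexus markers, and the second highest, SH control mouse 2 at 26.2 CPM, had 20.9 CPM of choroid plexus markers and 103 CPM of meningeal markers. Of the choroid plexus markers, Ttr, Clic6, Folr1 and Kcnj13 were at 0 in some libraries. In SH RES mice the 8 choroid plexus markers tested summed to 19.1 to 25.2 CPM with a median of 22.75, so none of the 7 libraries was rich in them. SH controls ranged from 20.9 to 985 CPM with a median of 24.25. Only SH control mouse 3 at 985 CPM and mouse 5 at 55.2 CPM stood apart there, and the next, mouse 6, had 27.95 CPM. The 8 meningeal markers (Dcn, Col1a1, Lum and others) ranged from 42.8 to 79.4 CPM in SH RES and from 36.4 to 102.6 CPM in SH control mice. With choroid plexus and meningeal scores as covariates the SH RES difference was -0.28 (unadjusted p = 0.000405) and still not called (adjusted p = 0.9995). It was -0.37 with granule cell and CA3 scores (adjusted p = 0.768) and -0.42 with mural and endothelial scores (adjusted p = 0.795).

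Igfbp5, the most abundant of the 9 genes per kilobase, had its lowest mean in EE RES mice. Its lowest, median and highest levels were 99.7, 129.6 and 170.2 CPM in SH control, 78.9, 142 and 148 in SH RES and 99.5, 127 and 169.8 in SH SUS mice. They were 96.2, 146 and 176 CPM in EE control, 91.9, 103 and 145 in EE RES and 99.0, 123 and 155 in EE SUS mice. All 9 EE RES mice lay below the EE control median and 3 lay below the lowest EE control, with the ranges overlapping otherwise. The log2 difference of EE RES from EE control was -0.33 ± 0.11 (unadjusted p = 0.00392, adjusted p = 0.538), and from SH RES -0.28 ± 0.12 (adjusted p = 0.203).

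The 5 dentate granule cell markers (Prox1, Dsp, C1ql2, Lct and Calb1) varied with Igfbp5. Their summed level was 749 ± 155 CPM in EE control (456 to 994) and 650.2 ± 109 CPM in EE RES mice (488 to 776), and across all 54 mice it had a Pearson's r of 0.71 with Igfbp5 on the log2 scale. With granule cell and CA3 scores as covariates the EE RES minus EE control difference in Igfbp5 was -0.13 (unadjusted p = 0.117) and the EE RES minus SH RES difference was -0.04 (unadjusted p = 0.635). With choroid plexus and meningeal scores these differences were -0.33 (unadjusted p = 0.00208) and -0.26 (unadjusted p = 0.0199). With mural and endothelial scores they were -0.34 (unadjusted p = 0.00238) and -0.29 (unadjusted p = 0.0160). The granule cell and CA3 fit and the mural and endothelial fit were chosen after seeing the data. Igfbp4, the third binding protein, had group means from 17.3 ± 1.67 (SH RES) to 19.2 ± 3.32 CPM (EE control), with single mice between 12.2 and 25.9 CPM. Its housing difference was 0.07 ± 0.06 (adjusted p = 0.616) and its defeat difference -0.04 ± 0.06 (adjusted p = 0.987).

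Vegfa had its lowest mean in SH control mice. Its lowest, median and highest levels there were 28.1, 34.4 and 44.7 CPM, against 31.5, 41.3 and 45.9 in SH RES and 32.2, 40.1 and 49.0 in SH SUS mice. In EE they were 32.3, 38.6 and 53.0 CPM in control, 34.1, 44.7 and 64.7 in RES and 34.0, 39.6 and 47.7 in SUS mice. Defeated and control mice overlapped, with 29 of 35 defeated mice above the control median of 36.1 CPM and 1 above the highest control. The defeated minus control difference was 0.17 ± 0.06 (unadjusted p = 0.00665) and did not pass the adjustment (adjusted p = 0.828). In SH the SUS minus control difference was 0.23 ± 0.09 (adjusted p = 0.9997) and the RES minus control difference 0.19 ± 0.10 (adjusted p = 0.9999). In EE the SUS minus control difference was 0.08 ± 0.10 (adjusted p = 0.878) and the RES minus control difference 0.17 ± 0.10 (adjusted p = 0.658), and the defeat effect was not shown to depend on housing (interaction -0.09 ± 0.12, adjusted p = 0.913).

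Red cell transcripts moved with the same contrast. All 5 red cell genes tested (Alas2 of haem synthesis and the globin genes Hba-a1, Hbb-bt, Hba-a2 and Hbb-bs) were called higher in defeated than in control mice, and their summed level was 180.1 ± 88.1 CPM in 35 defeated mice (52.4 to 441) and 82.6 ± 18.4 CPM in 19 controls (52.2 to 107). The r of Vegfa with this sum over the 54 mice was 0.40, or 0.27 after the group means were removed, and its r with the endothelial and mural sums was 0.41 and 0.42. With mural and endothelial scores as covariates the defeat difference in Vegfa was 0.14 (unadjusted p = 0.021). It was 0.15 with granule cell and CA3 scores (unadjusted p = 0.0145) and 0.17 with choroid plexus and meningeal scores (unadjusted p = 0.00766). The part of the red cell transcripts in the Vegfa difference was not tested.

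Kdr, the VEGF receptor, was not called in any comparison. Its lowest, median and highest levels were 19.1, 22.4 and 28.0 CPM in SH control, 18.6, 22.0 and 23.7 in SH RES and 19.4, 23.9 and 32.5 in SH SUS mice. The values were 20.6, 22.0 and 30.5 CPM in EE control, 20.9, 24.9 and 31.3 in EE RES and 19.3, 23.2 and 26.5 in EE SUS mice. In SH the SUS mean was the higher one and in EE the RES mean was, and the interaction of SUS or RES status with housing was -0.29 ± 0.12 (unadjusted p = 0.020, adjusted p = 0.977). Among RES mice, 6 of 9 EE mice lay above the highest SH mouse, with a difference of 0.22 ± 0.09 (adjusted p = 0.201).

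The wider pathways were read from gene lists around these members. The lists were chosen with earlier results of these data known, so their counts and medians are descriptions and not tests. No listed IGF or VEGF pathway gene was called in defeated against control mice or between SUS and RES mice, while in EE against SH mice, where 2.42% of all genes were called, the following counts were obtained. Of the 9 IGF binding protein family genes, 7 were tested and 2 were called, both higher in EE: Igfbp6, which prefers IGF2 to IGF1, by 0.47 ± 0.09 (1.39-fold, adjusted p = 0.00141) and Igfbp7, a binding protein of low IGF affinity found around vessels, by 0.26 ± 0.07 (1.20-fold, adjusted p = 0.0358). The list's median was 0.21, against 0.00 for all tested genes. Of 5 proteases and inhibitors that act on binding proteins, Htra1, a secreted serine protease, was called 0.11 ± 0.03 higher (adjusted p = 0.0438), whereas the stanniocalcins Stc2 (-0.22 ± 0.08, adjusted p = 0.120) and Stc1 (-0.18 ± 0.08, adjusted p = 0.193) were not called. The list's median was -0.02.

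Among 24 tested genes of receptor adaptors and downstream signalling, 2 were called, both higher in EE, with a list median of -0.01. They were Shc1, an adaptor of receptor tyrosine kinases, by 0.15 ± 0.04 (adjusted p = 0.0271), and Pik3r1, a regulatory subunit of phosphoinositide 3-kinase, by 0.13 ± 0.03 (adjusted p = 0.0108). None of the 3 tested receptors (Igf1r, Igf2r and Insr) and none of the 5 VEGF ligands was called; at an unadjusted p below 0.05 the counts were also 0. Of the 5 VEGF receptors and coreceptors, Flt1, the VEGFR1 gene, was called 0.23 ± 0.06 higher in EE (1.17-fold, adjusted p = 0.0186), while Flt4 (0.22 ± 0.10, adjusted p = 0.206) and Kdr (0.07 ± 0.05, adjusted p = 0.445) were not; the list's median was 0.07. Of 13 genes of the hypoxia pathway, Vhl, part of the ubiquitin ligase that marks hypoxia-inducible factors for destruction, was called 0.09 lower (-0.09 ± 0.02, adjusted p = 0.00324), with a list median of 0.02. The 4 angiopoietin and Tie genes gave 0 calls, 0 at an unadjusted p below 0.05, and a median of 0.02. Neither list had a called member in defeated against control mice, where Angpt2, an antagonist of the Tie2 receptor, differed by 0.21 ± 0.11 (adjusted p = 0.987) and the VEGF ligand Vegfb by 0.05 ± 0.04 (adjusted p = 0.987); Pgf, placental growth factor, differed by 0.10 ± 0.07 between housings (adjusted p = 0.467).

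Igfbp6, Pik3r1 and Vhl remained called when mural and endothelial scores or granule cell and CA3 scores were covariates. Under the mural and endothelial scores Flt1 was 0.13 higher (adjusted p = 0.118), Igfbp7 0.14 (adjusted p = 0.183), Shc1 0.10 (adjusted p = 0.152) and Htra1 0.12 (adjusted p = 0.0506), which are no longer calls. Under the granule cell and CA3 scores the same 4 genes also lost their calls, with adjusted p of 0.111 for Flt1, 0.224 for Igfbp7, 0.259 for Shc1 and 0.0605 for Htra1. Several pathway genes had too few counts to test. Ins1 was at 0 in every mouse, and the highest counts were 4 for Ins2, 17 for H19, the imprinted neighbour of Igf2, 5 for Igf2os and 8 for Igf2bp2, the highest of the 3 Igf2 mRNA-binding protein genes.

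**Figure D3:**
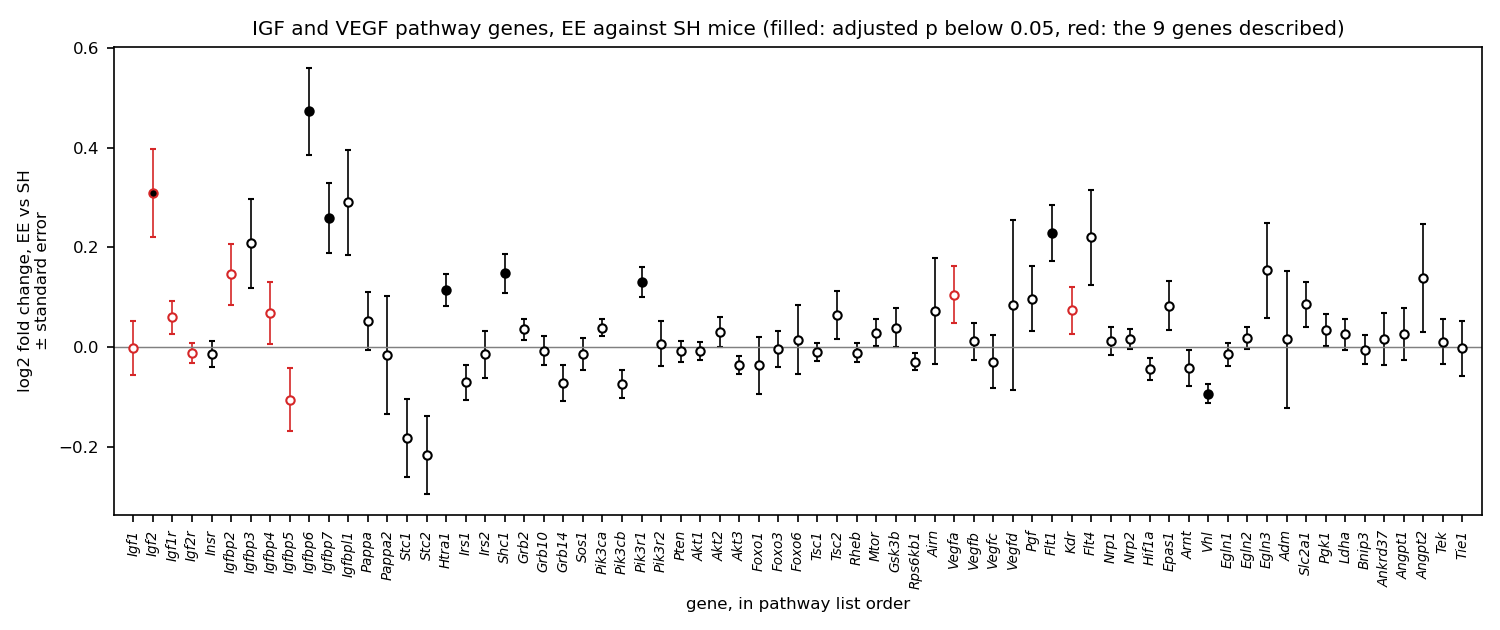
Log2 fold change with its standard error of each tested IGF and VEGF pathway gene in EE against SH mice, in list order, with the 9 genes described in red and called genes filled. Igfbp6 (0.47) and Igf2 (0.31) have the largest called differences, and Vhl (-0.09) is the called gene below 0.

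Across the 54 mice, whatever their group, some members varied together. Pearson's r of log2 CPM was 0.70 between Igf2 and Igfbp2 and 0.68 after the group means were removed; Spearman's rho was 0.68. Vegfa and Kdr had an r of 0.52 (0.49 without group means), and Igfbp2 and Igfbp4 0.50. The lowest value was -0.46, between Igf1 and Igf2r, followed by -0.37 between Igfbp4 and Igfbp5. Igf1 and its receptor Igf1r had an r of 0.18 and Igf2 with Igf1r 0.00. These are descriptions of 36 pairs, over mice that share dissection and library depth as sources of variation.

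**Figure D4:**
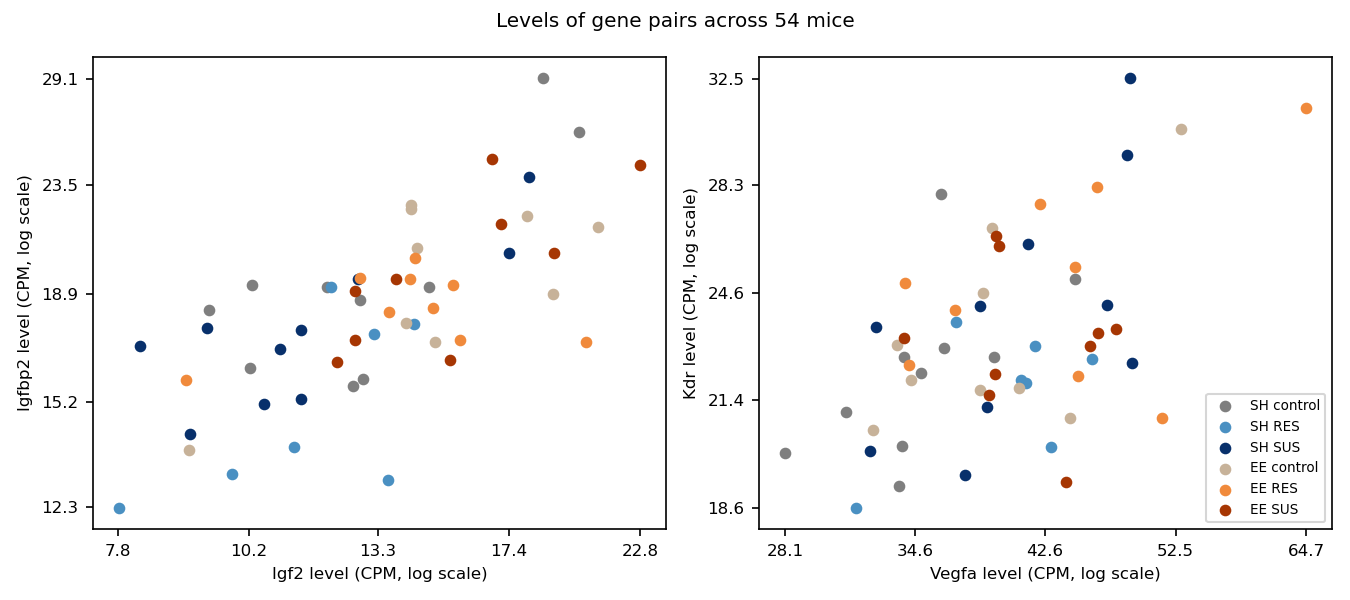
Levels in CPM on log axes of Igf2 and Igfbp2 (left) and of Vegfa and Kdr (right), one point per mouse, coloured by group. Points run from lower left to upper right in both panels, with r of 0.70 and 0.52, and the groups lie among each other.

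The genes most alike to each member by r of log2 CPM over the 54 mice, among 15231 genes with a mean of 1 CPM or more, were as follows. Igf2 was most like Bmp6, a bone morphogenetic protein (r = 0.76), Slc13a4, a sulfate transporter (0.71), and Tpm2, a tropomyosin (0.71), and Igfbp2 was most like Slc13a4 (0.69), Bmp6 (0.67) and Serpinh1, a collagen chaperone (0.65), so that Slc13a4 and Bmp6 stood in both lists. Igfbp5 was most like Gfra2, a coreceptor for neurturin (0.82), Prox1, the transcription factor of granule cells (0.81), and Kif26b (0.80). Igfbp4 was most like Npr3, the natriuretic peptide clearance receptor (0.82), and Cpne8 (0.80). Igf1r was most like Cacna1a, a calcium channel subunit (0.76), Mical3 (0.75) and Bsn, which encodes the presynaptic scaffold Bassoon (0.74). Igf2r was most like Kri1, Chrd and Dalrd3 (each 0.75). Lower values were found for Vegfa, with Narf (0.68), Apln, which encodes the peptide apelin (0.68), and Acer2 (0.66), for Igf1, with Rorb, a nuclear receptor (0.64), Plxdc2 (0.61) and Elmo1 (0.59), and for Kdr, with Rims4 (0.60), Olig2, an oligodendrocyte lineage factor (0.58), and Vwa1 (0.58).

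The members also differed in which cell type markers they moved with. Igf2 had its highest r with the mural cell sum (0.67), followed by oligodendrocytes (0.49) and endothelium (0.47), Kdr with mural cells (0.47), red cells (0.44) and endothelium (0.42), and Igfbp2 with meningeal fibroblasts (0.56, Spearman's rho 0.55) and choroid plexus (0.47). Spearman's rho of Igfbp2 with the choroid plexus sum was only 0.18, and that sum stood high in a few libraries. For Igf2 the r was 0.23 with the choroid plexus sum (Spearman's rho -0.019) and 0.43 with the meningeal sum. Igfbp5 had an r of 0.71 with granule cells and -0.61 with CA3 pyramidal cells, while Igfbp4 had -0.60 with granule cells and 0.70 with CA1 pyramidal cells. Igf1 had its highest r, 0.48, with thalamic markers and 0.07 with microglia. No covariate fit included the thalamic markers. Igf1r had -0.55 with astrocyte markers, and Igf2r -0.45 with endothelium. Some of these sums also differed in mean between housings, with overlapping ranges and no test of the sums. Oligodendrocyte markers summed to 1264 ± 287 CPM in SH (926 to 2229) and 1507 ± 336 CPM in EE mice (951 to 2058). Granule cell markers summed to 785 ± 96.3 CPM in SH (529 to 968) and 698 ± 125 CPM in EE mice (456 to 994). Of single markers, Mbp was called higher in EE and Dsp lower, and the others of these lists are not reported here. The part of these sums in the Igf2 difference beyond the covariate fits above was not tested.

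**Figure D5:**
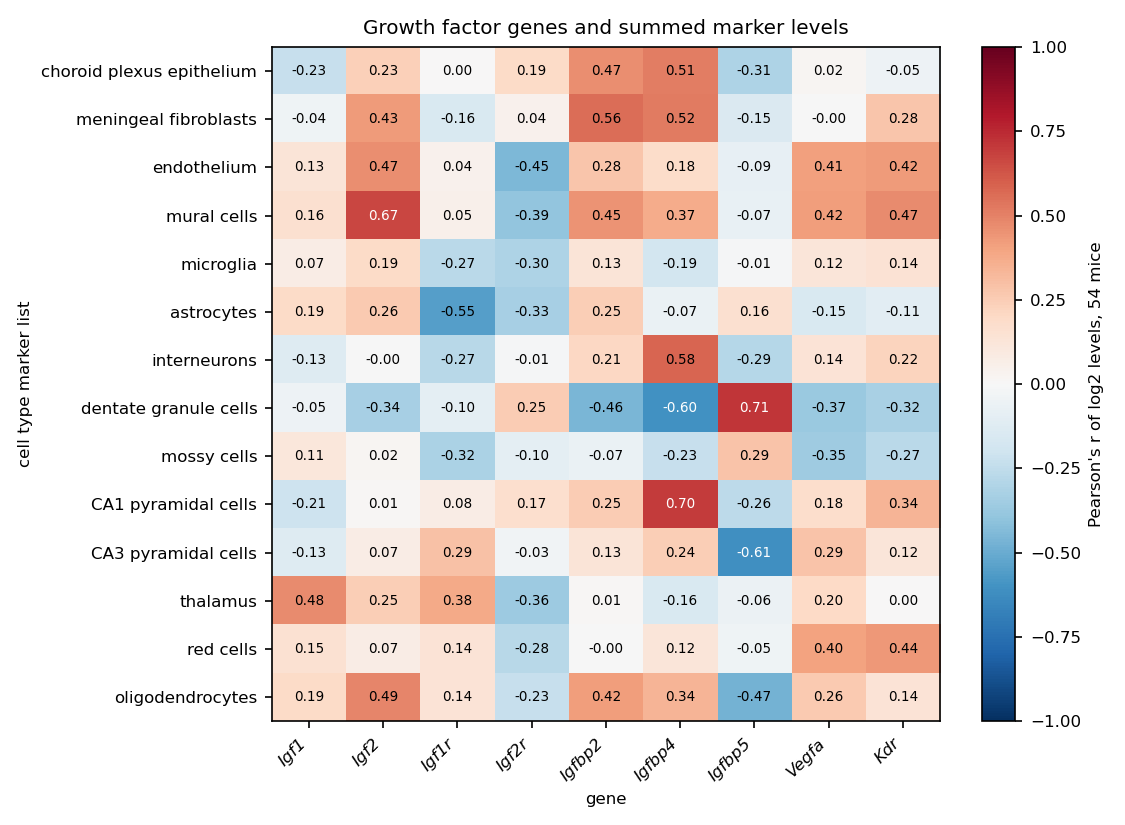
Pearson's r over 54 mice between the log2 level of each gene (columns) and the log2 summed level of each cell type marker list (rows), with the value printed in each cell and red for positive r. The largest values are 0.71 for Igfbp5 with granule cells, 0.70 for Igfbp4 with CA1 pyramidal cells and 0.67 for Igf2 with mural cells.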

How the data were processed

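The authors made 1 table of counts per library, which were deposited in the layout of STAR gene counts (unstranded, forward and reverse columns) on GRCm38/mm10; the paper names featureCounts, and no STAR version is given in the sources used here. Libraries were TruSeq stranded total RNA, so the reverse column was used, which held all but 3.51% to 4.13% of stranded counts. Ensembl identifiers were named from GENCODE M21 (44671 of 45318). The 2 sets of counts of EE control mouse 9 were added.

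Counts were filtered with filterByExpr over the 6 groups, scaled by TMM and fitted with edgeR 4.0.16 in R 4.3.3, with 1 mean per group and no covariate, since the labels give no batch. P-values were adjusted by Benjamini-Hochberg over 18283 genes. The study's tool, limma-voom (limma 3.58.1), and DESeq2 1.42.0 were alternatives. A prior count of 2 was used for log2 CPM. The test script was tested on simulated data. The labels name single mice, and p-values measure the spread between them. Housing was given by cage, and mice raised in the same cage were treated as independent. The p-values of EE against SH therefore leave out any likeness of cage mates. The members and gene lists were chosen with earlier results of these data known. Named genes were the members, the 3 genes most alike to each, and listed genes called in any comparison or otherwise with the smallest p in the pooled comparisons; Stc1, Stc2, Flt4 and the untested genes were named after their values were seen. Some genes that this rule names are not reported here. Alternatives were other scaling, filters, tools, strand column, covariates, a replicate block, the compared groups alone and each mouse left out. Reads in no gene and in several genes stayed out.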

Additional observations from a re-analysis of the deposited data

Results flagged for a closer look

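In each gene and group, the highest or lowest mouse was marked where its gap to the next mouse took up more of the group's range than Dixon's 95% critical value allows. Chance gives such a mark in about 1 in 20 groups; 7 marks arose in 54 gene and group pairs, and none concerned Igf2, Igfbp2, Vegfa or Kdr. In Igf1r, SH SUS mouse 8 was low at 26.4 CPM (next 30.4) and EE SUS mouse 8 was high at 41.5 CPM (next 32.9). In Igf2r, SH control mouse 1 was high at 139 CPM, EE control mouse 7 was low at 113 CPM, and EE RES mouse 6 was low at 114 CPM. In Igfbp5, SH RES mouse 5 was low at 78.9 CPM (next 127) and EE RES mouse 9 was high at 145 CPM (next 118). No difference of effects between groups passed its test.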

How the results depend on the processing

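The Igf2 difference between EE and SH mice kept its direction under every alternative run. Its call, and so the count of members called there, was lost (count 0) without the low-count filter (log2 0.31), with mural and endothelial scores (0.19) and with granule cell and CA3 scores (0.22), the last pair of fits chosen after seeing the data; without the filter 33000 genes were tested. Leaving out 1 mouse at a time gave 0.28 to 0.34 and 0 to 1 members called. The call was lost without SH control mice 1, 4, 5, 7, 8 or 9, SH RES mice 1, 2, 4, 5 or 6, SH SUS mice 2, 4, 5, 6, 9 or 10, EE control mice 1, 3, 5, 7 or 9, EE RES mice 3, 6 or 8, or EE SUS mice 3, 4, 5, 6 or 8 (adjusted p 0.0503 to 0.0696, edgeR). In the other 13 comparisons the count of members called was 0 under every alternative. Of the pathway calls, Htra1 was lost without any 1 of 32 mice (highest adjusted p 0.0737), Igfbp7 without any 1 of 9 (EE RES 6 or 8, EE SUS 4 or 5, EE control 5 or 9, SH RES 7, SH control 1 or 9; highest 0.0610) and Shc1 without EE control 5 (0.0512); Igfbp6, Pik3r1, Flt1 and Vhl kept their calls when each mouse was left out. Without the low-count filter the calls of Htra1 (adjusted p = 0.0775), Igfbp7 (0.05003) and Shc1 (0.0521) were lost, and Flt1 lost its call with mural and endothelial scores (0.118) and with granule cell and CA3 scores (0.111). Over all genes, 442 were called in EE against SH, 242 without the filter, 680 by DESeq2, 699 with choroid plexus and meningeal scores, 184 with mural and endothelial scores and 159 with granule cell and CA3 scores.

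Replicate numbers are shared between groups, and the labels do not say what a number marks. The criterion for pairing, every correlation of deviations above 0.1, was not met: of 126 pairs with the same number 32 were above it (median 0.026, against -0.0040 for different numbers), and 9 of 54 mice correlated best with a mouse of their own number. Because it asks this of every pair, missing the criterion does not show that mice of a number share nothing. With the replicate block the Igf2 difference was 0.31 (adjusted p = 0.0288), the count of members called stayed 1, and 581 genes were called in all. In EE against SH among RES mice the block raised the genes called from 50 to 228, with 0 members called in both fits. Depth limited Igf1 most, with 117 to 330 counts per mouse.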
